A study of Mus musculus with 10 samples.

Results

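The Myc, Max and Mxd network was examined in intestinal epithelial cells (IECs), the cells that line the gut, taken from the colon of WT and RhoB-/- mice. Its 8 genes, Myc, Mycl, Max, Mxd1, Mxd3, Mxd4, Mxi1 and Mnt, were chosen by name from the 55487 genes of the deposited table, and each was found once. RNA of 5 WT and 5 RhoB-/- mice was sequenced, with 1 library per mouse, to compare gene expression between the genotypes. The mice had the C57BL/6J background, RhoB-/- denotes a homozygous knockout of RhoB in the whole animal, and no treatment was named for these samples. The study generally used mice of 6 to 8 weeks. The methods name purchased male WT mice and a knockout line made at another centre, and whether the WT mice sequenced here were littermates is not given in the sources used here. Without such a link, genotype and the source of the mice cannot be told apart.

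Proteins of this network share a basic helix-loop-helix and leucine zipper region, through which they pair with MAX and bind the E-box, the DNA sequence CACGTG. MYC and MYCL activate genes when paired with MAX, mainly those for ribosome production, metabolism and cell division. MXD1, MXD3, MXD4, MXI1 and MNT compete for MAX, recruit the SIN3-histone deacetylase corepressor and repress the same kind of genes. In the gut, MYC is a target of Wnt signaling in dividing crypt cells, while MXD1 is known for its expression in cells that have stopped dividing and differentiate.

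Levels are given in TPM, a share of the transcripts of a library that is scaled for gene length, so levels can be compared between genes. TPM is meant to have the same total in each library. The deposited values summed to 971420 (WT replicate 4, the lowest) to 993230 (RhoB-/- replicate 3, the highest), and the main fit used them as given. TPM keeps no sequencing depth, and the depth and counting error behind each value are unknown. The genotypes were compared with limma on log2(TPM + 1). The fit covered 12870 genes whose mean TPM reached 1, and a gene was called at a Benjamini-Hochberg adjusted p below 0.05 over all of them. This scale understates the change of a gene that has a low TPM. All tested genes had a median log2 fold change of -0.13, so a gene at 0 lay slightly above the typical gene. RhoB itself (Rhob in the table) had 170.5 to 388.7 TPM in the WT libraries and 0.09, 0.10, 0.35 and 0.57 TPM in RhoB-/- replicates 1 to 4, but 111 TPM in the library labelled RhoB-/- replicate 5, which goes against its label. This library was kept in its labelled group, and results are also given without it.

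The members stood in a wide range of levels. Ordered by mean TPM in WT mice, they were Mxd1 (111 ± 30.8, SD, n = 5), Max (69.3 ± 13.2), Mxi1 (35.7 ± 4.2), Mxd4 (26.0 ± 5.24), Myc (17.6 ± 3.54), Mycl (6.83 ± 1.37), Mnt (6.78 ± 1.10) and Mxd3 (3.50 ± 0.736). Mycl and Mnt could not be ordered, since Mycl was the higher in 2 of 5 WT libraries. Every other pair of neighbours kept its order in 5 of 5 WT libraries, although the ranges of Mxd1 and Max, of Mxi1 and Mxd4, and of Mxd4 and Myc overlapped. In RhoB-/- mice the order was Mxd1 (221 ± 49.0, SD, n = 5), Max (117 ± 9.65), Mxi1 (44.1 ± 6.81), Mxd4 (18.5 ± 1.61), Myc (14.2 ± 3.65), Mnt (5.83 ± 1.35), Mycl (3.71 ± 0.909) and Mxd3 (2.32 ± 1.34), and it held in 5 of 5 libraries at each step.

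**Figure D1:**
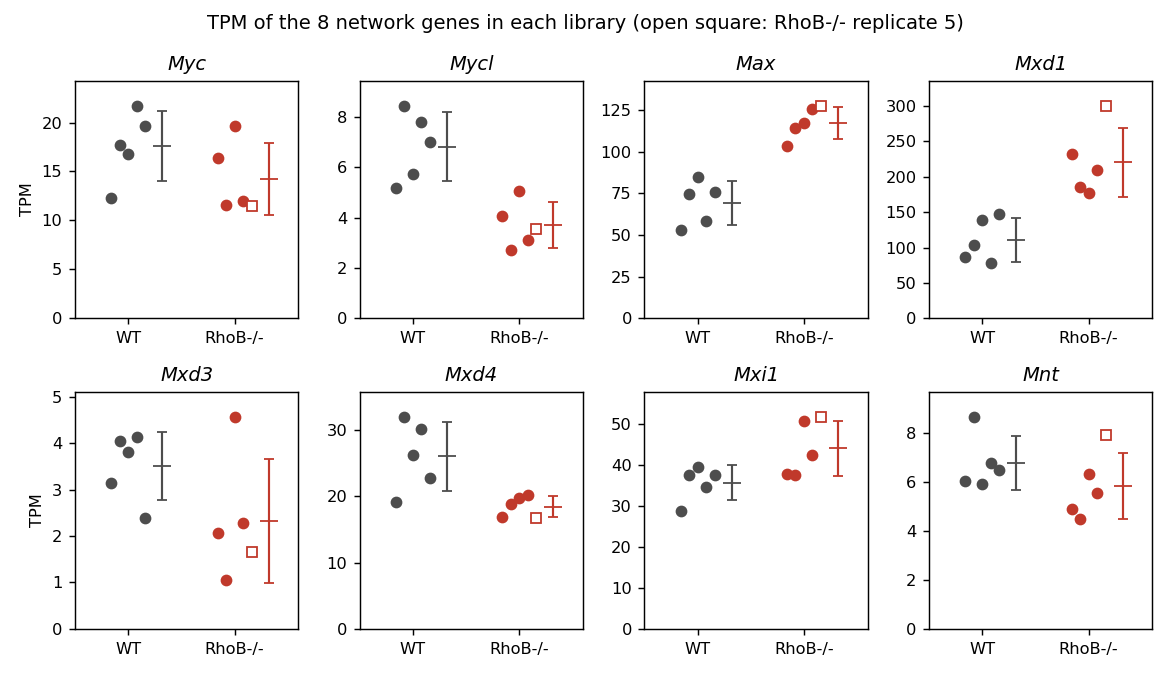
TPM of each of the 8 network genes (y axis, from 0) in the 5 WT and 5 RhoB-/- libraries (x axis); points are single libraries, horizontal marks with bars are mean ± SD, and the open square is the library labelled RhoB-/- replicate 5. The groups do not overlap for Max, Mxd1 and Mycl, and overlap for the other 5 genes.

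Mxd1 and Max rose in RhoB-/- mice, and Mycl and Mxd4 fell. Mxd1 roughly doubled, with a fold change of 2.0, and Max, the shared partner, rose 1.71-fold, while Mycl and Mxd4 stood at 0.600 and 0.729 of the WT level on the log2(TPM + 1) scale. Myc, Mxd3, Mxi1 and Mnt did not pass the test. All 8 members could be tested, and 4 were called, 2 of them higher (background 7.73% of all tested genes) and 2 lower (background 13.5%), 21.2% of all tested genes being called in either direction. For 3 members the WT and RhoB-/- values did not overlap (background 14.5%), 2 of them higher (background 5.97%) and 1 lower (background 8.55%). The scaling of the libraries set the balance between higher and lower over all genes: all genes called higher were 995 and all genes called lower were 1734 with TPM as deposited. They were 1587 and 1975 with quantile normalization, 2010 and 1645 with centring of the libraries on their median deviations, which moved the median log2 fold change of all genes to -0.01, and 1101 and 3729 without mitochondrial genes. Under each of these scalings Mxd1 and Max were called higher and Mycl and Mxd4 lower. By the study's own rule, an unadjusted p below 0.05 with a fold change above 1.5, 2 members were higher (background 6.37%) and 1 was lower (background 8.33%). Since the libraries come from mixed cells, fewer cells of a type and less RNA per cell cannot be told apart in any of these values.

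Mxd1 (ENSMUSG00000001156), a repressor of the network, is a minus-strand gene of chromosome 6, from 86647042 to 86669161 (GRCm38, GENCODE release M21). In WT replicates 1 to 5 it had 86.8, 104, 139, 78.5 and 147.5 TPM. In RhoB-/- replicates 1 to 5 it had 232, 186, 177, 209.6 and 299.6 TPM. Each RhoB-/- library lay above each WT library, and the highest value was that of the library labelled RhoB-/- replicate 5. The log2 fold change was 1.0 (standard error 0.20, 95% interval 0.57 to 1.44, adjusted p = 0.00523, limma), at the 96.4th percentile of all tested genes. Without RhoB-/- replicate 5 it was 0.89 (adjusted p = 0.0137, limma). Gm44292 lies within Mxd1 on the same strand and had means of 1.44 TPM (WT) and 2.96 TPM (RhoB-/-).

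Max (ENSMUSG00000059436) encodes the partner that the other members share, and is also on the minus strand, on chromosome 12 from 76937269 to 76962201. Its TPM was 53.1, 74.7, 84.8, 58.2 and 75.5 in WT replicates 1 to 5. RhoB-/- replicates 1 to 5 had 103.05, 114, 117, 125 and 127 TPM. All RhoB-/- libraries were above all WT libraries, and their SD was 9.65 TPM beside 13.2 TPM in WT. The log2 fold change was 0.77 (standard error 0.14, 95% interval 0.48 to 1.06, adjusted p = 0.00264, limma), the lowest adjusted p among the members. It was 0.74 without RhoB-/- replicate 5 (adjusted p = 0.00876, limma). Gm47218 lies within Max on the same strand and had means of 1.90 TPM (WT) and 2.37 TPM (RhoB-/-).

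Mycl (ENSMUSG00000028654), a relative of Myc, lies on the plus strand of chromosome 4 from 122995652 to 123002485. WT replicates 1 to 5 had 5.18, 8.42, 5.72, 7.80 and 7.01 TPM. The RhoB-/- values were 4.07, 2.72, 5.06, 3.12 and 3.56 TPM in the same order of replicate number. The groups were separate by a narrow margin, between RhoB-/- replicate 3 and WT replicate 1. Mycl fell by 0.74 on the log2 scale (standard error 0.16, 95% interval -1.09 to -0.38, adjusted p = 0.00903, limma). Without RhoB-/- replicate 5 the log2 fold change was -0.73 (adjusted p = 0.0228, limma). Mxd1, Max and Mycl stayed called in each of 10 fits that left out 1 library.

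Mxd4 (ENSMUSG00000037235), another repressor of the network, is found on chromosome 5 (minus strand) from 34173883 to 34187720. It had 19.2, 31.95, 26.3, 30.1 and 22.7 TPM in WT replicates 1 to 5. It had 16.8, 18.9, 19.7, 20.2 and 16.8 TPM in RhoB-/- replicates 1 to 5. The groups overlapped through WT replicate 1, which lay below RhoB-/- replicates 3 and 4, and 5 of 5 RhoB-/- libraries were below the WT median. Mxd4 fell by 0.46 on the log2 scale (standard error 0.14, 95% interval -0.75 to -0.16, adjusted p = 0.0351, limma). This call was fragile: it held in 3 of 10 fits that left out 1 library (adjusted p 0.0107 to 0.0931, limma), and without RhoB-/- replicate 5 the log2 fold change was -0.42 (adjusted p = 0.0788). An antisense gene, Gm42846, overlaps the end of Mxd4 with a mean of 0.854 TPM for WT and 0.986 TPM for RhoB-/-.

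The stretches around the start sites of the 4 called members are shown to compare where the E-box stands in them. They are RefSeq promoter windows on GRCm38.p6 that run from 250 bases before the start to 50 bases after it, 5′ to 3′ on the strand of the gene, with each CACGTG in capitals. This motif reads the same on both strands, so a single search covered both.
Mxd1, chr6:86669110-86669409, minus strand: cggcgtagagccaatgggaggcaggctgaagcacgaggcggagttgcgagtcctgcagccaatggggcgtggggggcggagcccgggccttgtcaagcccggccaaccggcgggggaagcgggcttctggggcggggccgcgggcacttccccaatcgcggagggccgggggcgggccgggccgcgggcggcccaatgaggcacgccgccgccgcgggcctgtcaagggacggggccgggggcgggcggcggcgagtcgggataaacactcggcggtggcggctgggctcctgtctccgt
Max, chr12:76962199-76962498, minus strand: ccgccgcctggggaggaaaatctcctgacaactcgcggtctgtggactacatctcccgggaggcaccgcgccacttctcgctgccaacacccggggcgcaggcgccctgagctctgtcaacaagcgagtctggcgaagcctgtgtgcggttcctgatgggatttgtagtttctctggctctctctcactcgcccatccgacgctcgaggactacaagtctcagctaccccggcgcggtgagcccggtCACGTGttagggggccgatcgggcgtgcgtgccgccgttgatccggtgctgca
Mycl, chr4:122995681-122995980, plus strand: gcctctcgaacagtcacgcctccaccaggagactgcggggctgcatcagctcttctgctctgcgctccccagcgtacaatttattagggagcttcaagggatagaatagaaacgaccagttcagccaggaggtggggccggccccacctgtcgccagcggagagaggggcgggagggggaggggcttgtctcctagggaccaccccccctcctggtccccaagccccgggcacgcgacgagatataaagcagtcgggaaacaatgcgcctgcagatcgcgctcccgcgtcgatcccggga
Mxd4, chr5:34187661-34187960, minus strand: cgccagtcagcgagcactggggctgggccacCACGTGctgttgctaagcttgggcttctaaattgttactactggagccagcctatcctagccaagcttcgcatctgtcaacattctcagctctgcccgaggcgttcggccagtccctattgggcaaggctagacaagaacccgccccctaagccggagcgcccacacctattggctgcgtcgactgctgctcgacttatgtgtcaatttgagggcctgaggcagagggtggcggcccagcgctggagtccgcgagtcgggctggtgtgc
The window of Max holds 1 E-box whose first base is at position -3, counting the RefSeq start site as 1 and the base before it as -1. The motif therefore spans the RefSeq start. The GENCODE start of Max, at 76962201, lies downstream of this motif. The window of Mxd4 holds 1 at position -219. No CACGTG stands in the windows of Mxd1 and Mycl. Of the members with a window, 3 of 7 hold the motif (42.9%), the third being Mnt at position -123, against 8.09% of 27025 genes with a window and 11.8% of 9457 tested genes with one. Of the called members, 1 that rose and 1 that fell hold it. A match of letters is a description and does not show binding.

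Myc (ENSMUSG00000022346), the founding member of the network, lies on the plus strand of chromosome 15 from 61985391 to 61990374. WT replicates 1 to 5 had 12.2, 17.7, 16.8, 21.65 and 19.7 TPM, and RhoB-/- replicates 1 to 5 had 16.3, 11.6, 19.7, 12.02 and 11.5 TPM. The groups overlapped: RhoB-/- replicates 1 and 3 lay within the WT range, 3 of 5 RhoB-/- libraries lay below the lowest WT library, and 4 of 5 RhoB-/- libraries were below the WT median. The log2 fold change was -0.30 (standard error 0.18, 95% interval -0.69 to 0.09, adjusted p = 0.244, limma), so a fall of the size seen for Mxd4 or a small rise both lay inside the interval. No fit that left out 1 library called Myc (adjusted p 0.0748 to 0.45, limma).

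The other 3 members, all repressors, did not pass either. Mxi1 (ENSMUSG00000025025, chromosome 19 from 53310518 to 53375810) had 28.9, 37.7, 39.6, 34.8 and 37.6 TPM in WT and 37.8, 37.6, 50.7, 42.5 and 51.7 TPM in RhoB-/- replicates 1 to 5. For Mxi1, 3 of 5 RhoB-/- libraries exceeded the highest WT library, and the log2 fold change of Mxi1 was 0.29 (95% interval 0.01 to 0.57, adjusted p = 0.119, limma). It was called after centring of the libraries on their median deviations (0.41, adjusted p = 0.00766) and with quantile normalization (0.28, adjusted p = 0.0224).

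Mxd3 (ENSMUSG00000021485, chromosome 13 from 55325168 to 55329823) is known for its expression in dividing cells. It had 3.15, 4.05, 3.80, 4.13 and 2.38 TPM in WT and 2.06, 1.05, 4.56, 2.28 and 1.66 TPM in RhoB-/- replicates 1 to 5. RhoB-/- replicate 3 was the highest of all 10 libraries, while the other 4 RhoB-/- libraries lay below every WT library. The log2 fold change was -0.50 (95% interval -1.02 to 0.02, adjusted p = 0.148, limma), and -0.71 without RhoB-/- replicate 3 (adjusted p = 0.0164, limma). The end of Mxd3 overlaps Prelid1 on the opposite strand, which had means of 215 TPM (WT) and 256 TPM (RhoB-/-), and how far reads of Prelid1 enter the Mxd3 value was not tested.

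Mnt (ENSMUSG00000000282, chromosome 11 from 74830920 to 74845725), the most widely expressed repressor of the family, had 6.05, 8.64, 5.92, 6.78 and 6.49 TPM in WT and 4.88, 4.50, 6.31, 5.55 and 7.91 TPM in RhoB-/- replicates 1 to 5. In this gene 3 of 5 RhoB-/- libraries fell below the WT range, and the library labelled RhoB-/- replicate 5 was the second highest of all 10. The log2 fold change was -0.20 (95% interval -0.52 to 0.12, adjusted p = 0.354, limma).

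**Figure D2:**
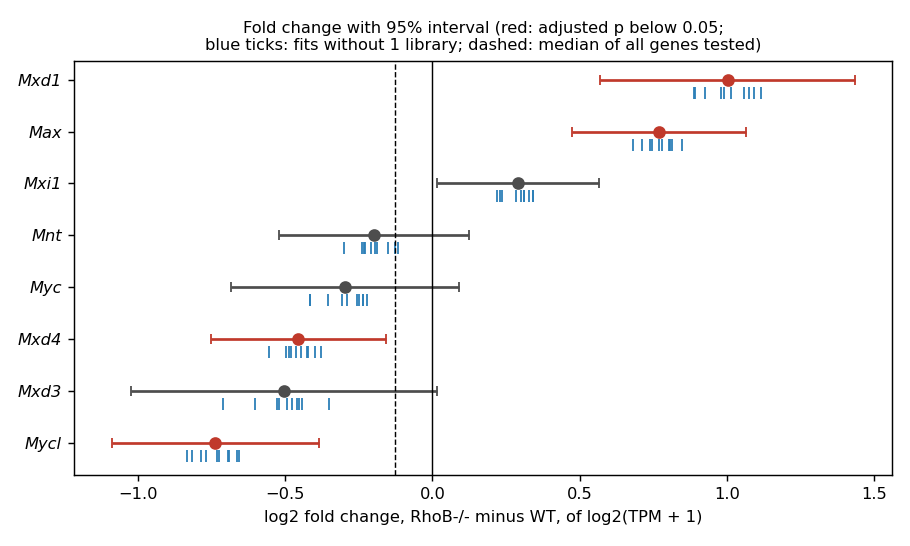
Log2 fold change of each member (x axis, RhoB-/- minus WT on log2(TPM + 1)) with its 95% interval, red where the adjusted p is below 0.05; blue ticks are the fits that each left out 1 library, and the dashed line is the median of all tested genes at -0.13. Mxd1 and Max lie farthest to the right and Mycl farthest to the left, and the interval of Myc, -0.69 to 0.09, includes 0.

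Ratios between members within a library stay the same when all its TPM values are multiplied by 1 factor. Quantile normalization can change them, and they were computed from TPM as deposited only. They are given as values without a test. The ratio of Mxd1 to Myc was 7.09, 5.85, 8.26, 3.63 and 7.50 in WT replicates 1 to 5. It was 14.2, 16.1, 9.0, 17.4 and 26.0 in RhoB-/- replicates 1 to 5. Mxd1 exceeded Myc in all 10 libraries, and the ratio was higher in every RhoB-/- library than in any WT library. The repressors summed (Mxd1, Mxd3, Mxd4, Mxi1 and Mnt) over Myc and Mycl summed gave 7.65 ± 1.6 in the WT and 17.1 ± 5.41 in the RhoB-/- libraries (SD, n = 5 each). Here too the groups were separate, with 9.52 as the highest WT and 10.4 as the lowest RhoB-/- value. Of the repressors only Mxd1 was called higher, while Mxd3, Mxd4 and Mnt had negative log2 fold changes (-0.50, -0.46 and -0.20). Mxi1 had 0.29 and was not called. The summed ratio therefore does not describe the repressors as a class.

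Max relative to Myc was 4.03 ± 0.868 for WT, beside 8.72 ± 2.40 for RhoB-/- (SD, n = 5 each), again without overlap. In contrast, the ratio of Mxd1 to Max was 1.59 ± 0.242 for WT, beside 1.88 ± 0.390 for RhoB-/- (SD, n = 5 each), and the groups overlapped. Relative to Myc, the mean of both Mxd1 and Max was higher in RhoB-/- mice. Among the repressors, the make-up also differed: Mxd1 was 50.9% to 68.1% of their summed TPM in WT and 68.5% to 79.3% in RhoB-/- libraries. Mxi1 over Mxd4 was 1.16 to 1.66 in WT and 2.0 to 3.09 in RhoB-/- libraries.

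**Figure D3:**
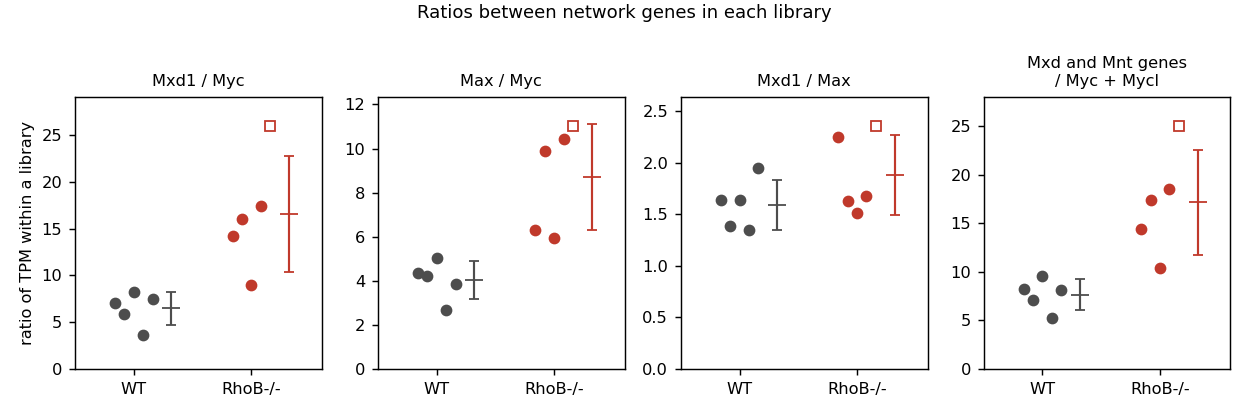
Ratios of TPM between network genes within each library (y axis, from 0) by genotype (x axis); points are libraries, marks with bars are mean ± SD (n = 5), and the open square is the library labelled RhoB-/- replicate 5. Mxd1 over Myc, Max over Myc and the summed repressors over Myc and Mycl do not overlap between the groups, while Mxd1 over Max does.

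Among other proteins of the extended network, Mlxipl, the glucose-responsive factor ChREBP, was the 1 gene called of 4 tested. It was called lower (background 13.5%), 21.2% of all tested genes being called in either direction. A count of 1 of 4 is too small to set the list apart from this background. The TPM of Mlxipl was 15.3, 20.6, 11.7, 23.4 and 16.2 in WT and 6.71, 10, 13.4, 10.7 and 8.56 in RhoB-/- replicates 1 to 5. It fell by 0.76 on the log2 scale (standard error 0.20, adjusted p = 0.0195, limma), although RhoB-/- replicate 3 lay above the lowest WT library, and the call was lost without WT replicate 2 or 4 (adjusted p up to 0.0518). Its partner Mlx had 71.0 ± 4.02 and 83.8 ± 10.1 TPM (log2 fold change 0.23, adjusted p = 0.132), the relative Mlxip 20.8 ± 4.47 and 19.5 ± 2.31 TPM (-0.07, adjusted p = 0.739), and Mga, a large MAX partner, 5.88 ± 1.28 and 4.07 ± 0.767 TPM (-0.44, adjusted p = 0.0633, limma; SD, n = 5 each). Mycn, the third MYC gene, did not pass the filter, with 1.04 ± 0.404 TPM for WT beside 0.278 ± 0.148 TPM for RhoB-/- (SD, n = 5 each), and every RhoB-/- library lay below every WT library (p = 0.00794 by a two-sided exact permutation test of mean TPM, the lowest value this design can give).

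The list for the SIN3-histone deacetylase corepressor held 14 genes, 13 for its subunits or partners and Ncor1 of the separate NCoR corepressor. Of these 14, Hdac2, a histone deacetylase, was the 1 called (7.14% lower, background 13.5%) and fell by 0.49 on the log2 scale (adjusted p = 0.0319, limma). This call held in 2 of 10 fits that left out 1 library, those without WT replicate 3 or RhoB-/- replicate 3. The list's median log2 fold change was -0.12, close to the -0.13 of all tested genes. Of 19 cofactors of MYC, limma called 0 (background 21.2% called in either direction), with 4 at an unadjusted p below 0.05, and their median was -0.17. Without RhoB-/- replicate 3, 5 of them were lower (26.3%), close to the 22.3% of all genes in that fit. Of 21 genes that set the stability of the MYC protein, 4 fell (19.0% lower, background 13.5%), with a median of -0.16. These were the deubiquitinases Usp22 (log2 fold change -0.59) and Usp36 (-0.41), the ubiquitin ligase Trim32 (-0.50) and the mitotic kinase Plk1 (-0.65). The count was 7 without RhoB-/- replicate 3 (33.3%, beside 22.3% of all genes).

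Among genes that MYC is known to activate, more fell than rose in RhoB-/- mice. Of 54 such genes 53 could be tested, of which 18 fell and 1 rose (34.0% lower, background 13.5%; 1.89% higher, background 7.73%). A negative log2 fold change was found for 51 of 53 (46 of 53 with centring of the libraries), the exceptions being Ldha and Cdc25a, and 46 of 53 lay below the median of all tested genes. The list's median was -0.36, beside -0.13 for all tested genes. Since the list was chosen with earlier results of these data known, its direction is a description. The count rested on single libraries: it was 11, 6, 13, 5 and 8 without WT replicates 1 to 5, and 6, 9, 36, 11 and 6 without RhoB-/- replicates 1 to 5. Over all genes, 6.66% to 22.3% were lower in these fits. Without WT replicate 4 it was 9.43% of the targets beside 6.66% of all genes, without RhoB-/- replicate 5 it was 11.3% beside 8.68%, and without RhoB-/- replicate 3 it was 67.9% beside 22.3%. In the same fits 48 to 51 targets had a negative log2 fold change, and the median was -0.47 to -0.27.

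By role, 8 of 24 ribosome biogenesis genes fell (33.3%, background 13.5%; median -0.36), and 2 of them (8.33%, beside 8.68% of all genes) without RhoB-/- replicate 5. All 24 had a negative log2 fold change, as did 65.4% of all tested genes. Among these, Utp20, a part of the small subunit processome, had 41.8 ± 4.22 TPM for WT, beside 26.9 ± 0.902 TPM for RhoB-/- (SD, n = 5 each; log2 fold change -0.61, adjusted p = 9.83e-04, limma), and Rcl1 fell by 0.65 (adjusted p = 0.0102). In nucleotide, polyamine and one-carbon synthesis, 4 of 12 genes fell (33.3%; median -0.41), and 3 without RhoB-/- replicate 5. Paics and Ppat, enzymes of purine synthesis, fell by 0.74 and 0.60 on the log2 scale (adjusted p = 0.00536 and 0.0103, limma), and Impdh2, an enzyme on the way to GTP, fell by 0.67 (adjusted p = 0.0187). The calls of Utp20, Rcl1, Paics and Ppat held in all 10 fits that left out 1 library, and that of Impdh2 was lost without WT replicate 4 (adjusted p = 0.0535).

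Of 5 chaperones and prohibitins, 2 fell, and of 6 tested genes for the cell cycle, replication and repair, 3 fell. Without RhoB-/- replicate 5 both counts were 0, beside 8.68% of all genes. The 3 translation initiation factors had a median log2 fold change of -0.06 and did not pass the test. The largest fall on the list was that of Tfrc, the transferrin receptor that takes up iron, from 84.8 ± 9.10 to 42.0 ± 7.43 TPM (SD, n = 5 each; log2 fold change -1.01, adjusted p = 3.04e-04, limma), with no overlap and a call in all 10 fits that left out 1 library. Ldha, lactate dehydrogenase of glycolysis, was the 1 target that rose (0.47, adjusted p = 0.0271, limma). This call was lost in 6 of 10 fits that left out 1 library, RhoB-/- replicate 5 among them. Ldha was named after its values were seen.

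**Figure D4:**
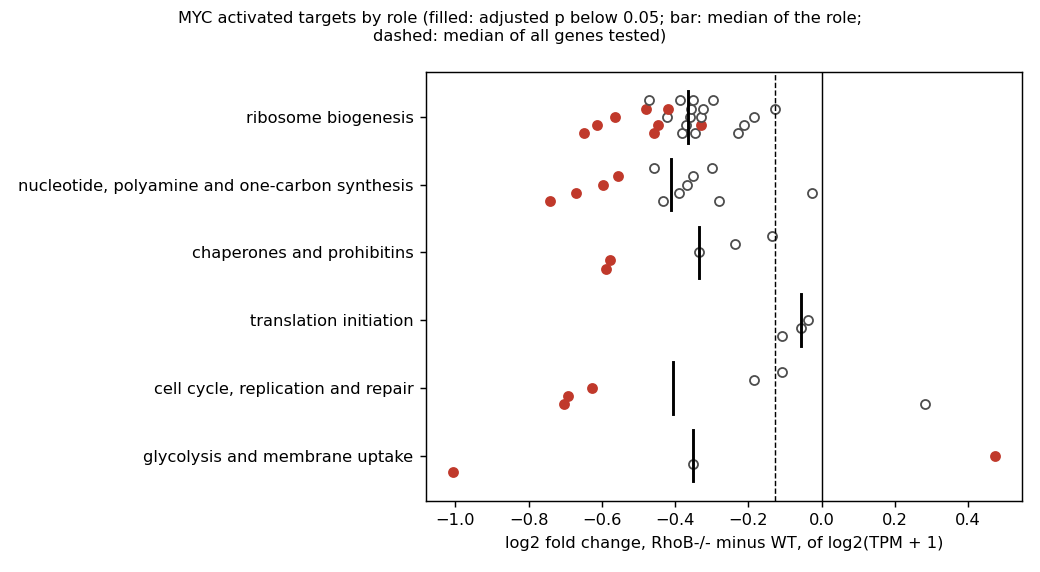
Log2 fold change (x axis, RhoB-/- minus WT on log2(TPM + 1)) of the 53 tested MYC activated targets, grouped by role; filled points have an adjusted p below 0.05, black bars are the median of each role, and the dashed line is the median of all tested genes at -0.13. Most points lie left of the dashed line, translation initiation lies to its right, and Ldha is the filled point at 0.47.

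The E-boxes of the called targets are shown because the motif is the site this network binds. Of 47 targets with a RefSeq window, 16 hold CACGTG (34.0%), against 11.8% of tested genes with a window. Among targets that fell it was 7 of 17 (41.2%), and among targets tested and not called 8 of 28 (28.6%). Each line gives the E-box in capitals with up to 10 bases on each side, 5′ to 3′ on the strand of the gene (GRCm38.p6). For genes with several E-boxes the one nearest to the start site is printed. Cdk4, a cyclin-dependent kinase of cell cycle entry, holds 4, Apex1, a DNA repair enzyme, holds 3 and Ldha holds 2.
Utp20, chr10:88826765-88826787, minus strand: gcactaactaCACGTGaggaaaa
Paics, chr5:76951089-76951114, plus strand: cctcggaaagCACGTGgagggacctg
Impdh2, chr9:108560316-108560341, plus strand: gctcgataagCACGTGgttacccagc
Mybbp1a, chr11:72441357-72441376, plus strand: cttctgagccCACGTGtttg
Hspd1, chr1:55088308-55088333, minus strand: ccggctgggaCACGTGaaaaggccgc
Apex1, chr14:50924939-50924964, plus strand: gccctcgaatCACGTGaccacaccaa
Cdk4, chr10:127063514-127063539, plus strand: gggtgaagatCACGTGtccagaacgt
Ldha, chr7:46845746-46845771, plus strand: gcccagcctaCACGTGggttcccgca
These 8 genes hold the same 6 letters, and 7 of them fell while Ldha rose. Members of the list beyond the first 6 by adjusted p were named here after their values were seen.

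Genes that MYC is known to repress did not move together. Of 12 tested, 1 rose (8.33%, background 7.73%) and 2 fell (16.7%, background 13.5%), both near the background, with a median log2 fold change of -0.08. Krt20, a keratin of differentiated surface cells, rose by 1.17 (adjusted p = 0.00224), while Gadd45b, a stress response gene, and Ndrg2, a gene linked to differentiation, had log2 fold changes of -0.74 (adjusted p = 0.00527) and -0.62 (adjusted p = 0.0123, limma). Krt20 is also on the list of surface colonocyte markers.

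Markers of crypt position were set beside the network. Of 16 markers of differentiated colonocytes at the surface, 8 rose (50% of them, background 7.73%), with a median log2 fold change of 0.78. The strongest by adjusted p were Lypd8 (1.65), which keeps bacteria from the epithelium, the adhesion molecules Ceacam20 (1.41) and Ceacam1 (1.22), and Emp1 (1.36), an epithelial membrane protein. The summed TPM of the list was 11688 to 18036 in WT and 27653 to 42410 in RhoB-/- libraries, without overlap. Lypd8 had the largest part in this, and without it the sums were 8340 to 12358 and 12806 to 22015, still without overlap. Cyp2c55 and Guca2a, abundant genes of the list, did not pass the test (log2 fold change -0.29 and -0.03). The highest sum was in the library labelled RhoB-/- replicate 5, which also had the highest Mxd1 and Max.

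Of 20 proliferation markers, 7 fell (35.0% lower, background 13.5%), with a median of -0.52, and all 20 had a negative log2 fold change. Among them were Mcm3 (-0.83), Mcm7 (-0.67), Mcm2 (-0.61) and Mcm6 (-0.66), subunits of the helicase that opens DNA for replication. This count was 4, 1, 7, 1 and 5 without WT replicates 1 to 5, and 3, 2, 18, 3 and 1 without RhoB-/- replicates 1 to 5, which is 5% of the markers where 8.68% of all genes were lower for the last of these fits. They summed to 541 to 747 TPM in WT libraries. In RhoB-/- libraries the sum was 295 to 480 in replicates 1, 2, 4 and 5, but 766 in replicate 3. That library also had the highest Mxd3, the highest Myc and Mycl of the RhoB-/- group and the highest sum of MYC activated targets (4164 TPM, against 3413 to 3774 in WT libraries). Ldha, the target that rose, made up 1231 TPM of it, and without Ldha the sum of this library was 2933, inside the WT range of 2671 to 2993, while the other RhoB-/- libraries had 1687 to 2309. The part of cell composition in the changes of the network was not tested.

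Of 11 tested crypt stem cell markers, 4 fell (36.4%, background 13.5%) and 1 rose (9.09%, background 7.73%). The 4 became 2 without WT replicate 4 and 3 without WT replicate 2 or RhoB-/- replicate 5. Sox9 (-1.16), Smoc2 (-1.05), Ephb2 (-0.47) and Slc12a2 (-0.56) fell, and Prom1 rose (0.79). All 9 defining markers of the intestinal epithelium, among them Epcam, Cdh1, Vil1 and Cdx2, were expressed, and their summed TPM was 9539 to 10971 in WT and 9035 to 14111 in RhoB-/- libraries. Vil1, a protein of the brush border, rose by 0.65 and Cdx2, a factor of intestinal identity, by 0.42 (adjusted p = 0.00638 and 0.0447, limma), the call of Cdx2 holding in 2 of 10 fits that left out 1 library.

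Markers of leukocytes were low, and their summed TPM was 9.46 to 16.1 for WT and 23.9 to 53.4 for RhoB-/- libraries. Of 15 such markers, 7 passed the filter and 6 rose (background 7.73% of all tested genes), among them Cd8a, Ptprc, Itgae and Cd3e. None was at 0 in every library. Because low genes pass the filter mainly where they are high, the count of 6 does not describe all 15. Stromal and muscle markers summed to 4.34 to 5.55 TPM in WT and 7.17 to 36.7 TPM in RhoB-/- libraries. Dcn, a fibroblast gene, was the 1 called of 2 tested, and it was higher (background 7.73%). Both sums were highest in the library labelled RhoB-/- replicate 5. Their part in the network's changes was not tested.

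**Figure D5:**
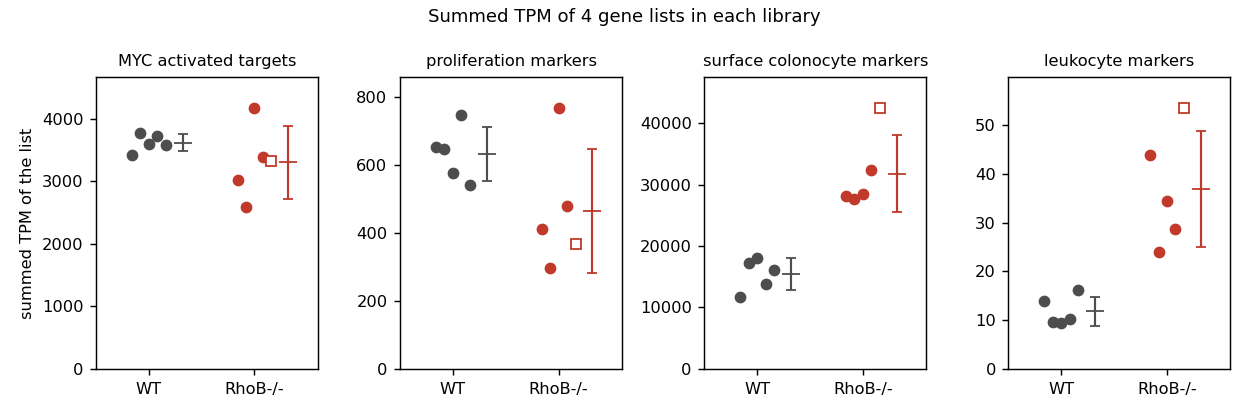
Summed TPM of 4 gene lists (y axis, from 0) in each library by genotype (x axis); points are libraries, marks with bars are mean ± SD (n = 5), and the open square is the library labelled RhoB-/- replicate 5. Surface colonocyte and leukocyte markers do not overlap between the groups, while RhoB-/- replicate 3 is the highest library for proliferation markers (766). It is also highest for MYC activated targets (4164), a sum that holds 1231 of Ldha and is inside the WT range without it (2933).

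The genes whose pattern over the 10 libraries was most like that of a member are given as a description, by Pearson r (n = 10 libraries) of log2(TPM + 1). All points share the genotype difference and the scaling of each library, and the 3 genes named for each member had the highest r among all tested genes. Mxd3, whose own mean TPM is under 5, was left out. For Mxd1 they were Marchf3 (r = 0.995), Tmem238l (0.982) and Hk2 (0.979). For Max they were Misp (0.983), Cdhr5 (0.981) and Clec2d (0.977), and for Mxi1 Slc52a2 (0.979), Plgrkt (0.973) and Atp6v0e (0.973). Mycl was followed most closely by Vgll4 (0.988), Hs2st1 (0.987) and Tamm41 (0.979), and Mxd4 by Atg7 (0.968), Sipa1l2 (0.967) and Gm20219 (0.966). Myc and Mnt had less close neighbours, Actr8 (0.923), Cinp (0.916) and Aldoc (0.916) for Myc and Spop (0.961), Hic2 (0.955) and Camsap1 (0.948) for Mnt.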

How the data were processed

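Colon IEC libraries of 5 WT and 5 RhoB-/- mice were compared, with groups and replicate numbers from the sample labels. The authors made paired-end reads of 150 bases and used SeqPrep and Sickle for trimming, HISAT2 for alignment, StringTie for assembly and RSEM for gene levels. The submitters' processing notes name GRCm38.p6 and edgeR as well, and versions and the annotation release are not given in the sources used here. The deposited values are TPM, rounded to 2 decimals, and were used as given. TPM keeps no depth, so no counting error is given and no count test was run.

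From these values limma 3.58.1 in R 4.3.3 was run on log2(TPM + 1) with an intensity trend, over genes whose mean TPM reached 1, with Benjamini-Hochberg adjustment. Errors of TPM values are the SD between mice, each sequenced once. A gene below the filter was compared by an exact permutation test over 252 labellings. The fit was tested on simulated data. No libraries were identical.

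The members and the gene lists, compiled by hand, were chosen with earlier results of these data known. Named genes were all members, all other network proteins, and up to 4 called genes of each other list, or 6 of the MYC activated targets, by lowest adjusted p. Slc12a2, Cyp2c55 and Guca2a were named after their values were seen. The roles of the targets were assigned after the results were seen. Gene positions are from GENCODE release M21 (GRCm38) and promoter windows from RefSeq (GRCm38.p6). The 13 other lists cover network proteins, corepressor, cofactors, protein turnover, activated and repressed targets, proliferation, stem cell, surface colonocyte, epithelial, leukocyte and stromal markers, and immediate-early genes. The alternatives were a pseudocount of 0.1, other filters, quantile normalization, centring, leaving out mitochondrial genes, no trend, a replicate block, the study's rule for calls (unadjusted p below 0.05, fold change above 1.5), fits without each library, and, chosen after seeing the data, fold changes from mean TPM.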

Additional observations from a re-analysis of the deposited data

Results flagged for a closer look

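Rhob, the targeted gene, had a TPM of 110.87 in the library labelled RhoB-/- replicate 5, far from the 0.09 to 0.57 TPM of the other 4 RhoB-/- libraries. Its gap to the nearest of them was 0.996 of the range of the group. Among 98 groups of 5 values examined over the named genes, this was the 1 value whose gap reached the cutoff of 0.71. About 4.9 groups would reach that cutoff by chance. This number holds for the cutoff and not for a gap as large as 0.996.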

How the results depend on the processing

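The members had 159 log2 fold changes under 9 alternative settings, 10 fits without 1 library and fold changes from mean TPM. None of them changed sign, and 147 kept their side of the threshold. The other filters, the fit with no trend, the replicate block and the study's rule leave each fold change as it is. Its sign could therefore not change in those settings. The call of Mxd4 was lost in 9, and Mxi1 or Mxd3 gained a call in 3. The network members called lower were 1 without the filter and under the study's rule and 1 to 3 without 1 library, beside 2, and those called higher were 2 in every fit without 1 library. Deviations of same-numbered replicates were hardly correlated (-0.0874 to 0.072), and whether such replicates shared a batch is not given in the labels. With the replicate block, all genes called lower were 1059 and MYC activated targets called lower were 9. All genes called lower were 1104 with a filter at a mean TPM of 5, 3729 without mitochondrial genes, 1072 under the study's rule and 853 to 2868 without 1 library, beside 1734. The number of all genes called higher was 1587 with quantile normalization and 2010 with centring, and 719 to 1154 without 1 library, beside 995. MYC activated targets called lower were 7 without the filter, 33 without mitochondrial genes, 10 under the study's rule and 5 to 36 without 1 library, beside 18. MYC activated targets called higher were 0 without the filter and under the study's rule, 2 with quantile normalization and with centring, and 0 to 1 without 1 library. The log2 fold change of Mlxip, main value -0.07, changed sign with centring (0.043) and without WT replicate 2, and was -0.137 to 0.028 without 1 library. The causes were not tested. Unknown depth limits the lowest members, Mxd3, Mnt and Mycl.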

Other observations

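Immediate-early genes, which respond within minutes to stimulation or tissue handling and to which Myc is often counted, did not move as a group. Of 15 tested, 2 fell (13.3%, beside 13.5% of all tested genes), with a median log2 fold change of -0.15 beside -0.13 for all tested genes. Klf2, a transcription factor, had 64.8 ± 20.6 TPM for WT, beside 26.4 ± 7.13 TPM for RhoB-/- (SD, n = 5 each; log2 fold change -1.23, adjusted p = 0.00781, limma), and Nr4a1, a nuclear receptor, 76.0 ± 23.0 and 41.8 ± 10.1 TPM (-0.81, adjusted p = 0.0324), whose call held in 3 of 10 fits that left out 1 library. The groups overlapped for both genes. The summed TPM of the list was 2040 to 6280 in WT and 3118 to 4644 in RhoB-/- libraries.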
